A study of Mus musculus with 4 samples.

Results

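The teneurin genes Tenm1 to Tenm4, the latrophilin genes Adgrl1 to Adgrl3 and the FLRT genes Flrt1 to Flrt3 were followed through 2 tables of glucocorticoid receptor (GR) binding sites. A peak belonged to one of these 10 genes when the deposited table named the gene beside it, at any distance. By that rule 49 of the 10402 peaks of the PDGFRa+ list and 1 of the 23 intervals of the CD137+ table were taken. The set was chosen by the deposited sites themselves, namely the CD137+ interval in Tenm4 and the PDGFRa+ peaks upstream of it, so counts and values at them are descriptions and carry no test. GR, the nuclear receptor for glucocorticoid hormones, had been immunoprecipitated from adipose progenitors of C57BL/6 mice and the bound DNA sequenced. PDGFRa+ cells (also labelled CD140+) and CD137+ cells were sorted with magnetic beads, exposed to an adipogenic cocktail and treated with dexamethasone, a synthetic glucocorticoid, at 1 µM. There was 1 immunoprecipitate and 1 input per cell type and no group without dexamethasone, so differences between the cell types cannot be set against a spread of replicates. The labels give neither the age of the mice nor which fat depot supplied which cells, and binding sites do not measure the markers that define a cell type.

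Teneurins are very large single-pass proteins of the cell surface, and latrophilins are adhesion G protein-coupled receptors that bind them across the contact between neighbouring cells. FLRT proteins, which carry leucine-rich repeats, bind latrophilins at another domain and can join the same complex. The family is known mainly from the nervous system, where it acts in synapse formation and in the guidance of axons and migrating neurons. GR binds DNA as a dimer at a palindrome of 2 half-sites, often far from the genes it regulates.

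Tenm4, the teneurin gene that had a site in both tables, has 2 start sites in the RefSeq promoter table, and the tables measure from different places. The 250 bases before each start site are shown because every Tenm4 distance depends on which start is used. They lie on chromosome 7 at chr7:96170994-96171243 (upstream start site) and chr7:96211421-96211670 (downstream start site), GRCm38.p6, plus strand, with sequences from RefSeq. Capitals mark a GR half-site, AGAACA or its reverse complement TGTTCT.
Tenm4 upstream start: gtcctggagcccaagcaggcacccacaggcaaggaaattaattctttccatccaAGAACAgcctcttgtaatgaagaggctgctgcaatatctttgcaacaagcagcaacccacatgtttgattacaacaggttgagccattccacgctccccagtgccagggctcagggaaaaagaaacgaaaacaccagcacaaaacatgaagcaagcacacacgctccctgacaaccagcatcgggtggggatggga
Tenm4 downstream start: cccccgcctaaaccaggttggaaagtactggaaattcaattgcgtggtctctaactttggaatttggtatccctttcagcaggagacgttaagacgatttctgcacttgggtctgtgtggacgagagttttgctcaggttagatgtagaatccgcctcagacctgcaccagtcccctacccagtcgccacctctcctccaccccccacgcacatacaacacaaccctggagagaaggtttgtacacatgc

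The promoter table held 12 start sites for 9 of the 10 genes and none for Flrt1. A half-site, searched on both strands, was in 2 of these 12 windows, and in 16.1% of all 32851 promoter windows of that length. Besides the upstream Tenm4 start, where it began 196 bases before the start site, it stood 71 bases before the Tenm1 start. The full palindrome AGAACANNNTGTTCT was in none of the 12, and in 3 of all windows. The windows ranged from 27.2% G and C at Tenm1 to 76.8% at the farthest upstream Adgrl3 start, against a median of 52.4% in all windows. No peak or interval lay in any of these windows. A match is a run of letters and not a binding site.

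In CD137+ cells the Tenm4 interval lay inside the gene at position 96713056 of chromosome 7 (mm10). Its peak value was 60 in the authors' unit, the 4th highest of the 23 intervals, whose median was 41.5. The table placed it 502419 bp from a gene start that it gives as 96210637. Measured from the upstream start site of RefSeq, which lies 39.4 kb before that position, the interval stood at 542 kb, or 73.2% of the way along the 740 kb gene. The other 9 genes were not in the CD137+ table, which held 0.114% of all protein-coding genes and lists only genes with a CD137+ interval. No PDGFRa+ interval was given beside it in that table.

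In PDGFRa+ cells 6 peaks were listed under Tenm4, and all 6 lay upstream of the gene. The nearest, with a score of 48, was 5511 bp from the upstream start site in a MIRc element, an old SINE repeat (chromosome 7, 103314171 to 103314316 in the deposited coordinates, whose build is not mm10). A peak with a score of 38 followed at 33.3 kb and one with a score of 41 at 372 kb. The last 3, with scores of 41, 31 and 33, stood 1015, 1095 and 1126 kb upstream, within 111 kb of each other. The upstream peaks thus fell into a pair near the gene, a lone peak, and a group more than a megabase away.

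The gene itself was not empty in the PDGFRa+ list. Another 3 peaks lay in Tenm4 introns but were listed under the genes whose start sites were nearer. The peak with a score of 49 in intron 5 of 32 and the peak with a score of 33 in intron 16 of 32 were listed under Gm15413, a predicted gene within Tenm4. The peak with a score of 41 in intron 27 of 32 was listed under Nars2, which encodes a mitochondrial asparaginyl-tRNA synthetase and lies beyond the end of Tenm4. From the upstream start site these peaks stood at 429, 612 and 708 kb. The start of Gm15413 lay 630.305 kb from that start site in the list and at the same distance in GRCm38, so distances up to this point within Tenm4 could be read across the builds.

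The CD137+ interval, at 542 kb, fell between the intron peaks of PDGFRa+ cells at 429 and 612 kb. It was 69.9 kb from the nearer of them and 113 kb from the other. No PDGFRa+ peak lay within 500 bp of its place, nor within 10 kb. Tenm4 therefore had GR sites within the gene in both tables and none at a common place. The read depth of the libraries is not given in the sources used here, and neither the value of one table nor the score of the other has a stated scale, so whether each site was bound in the other cell type was not tested.

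**Figure D1:**
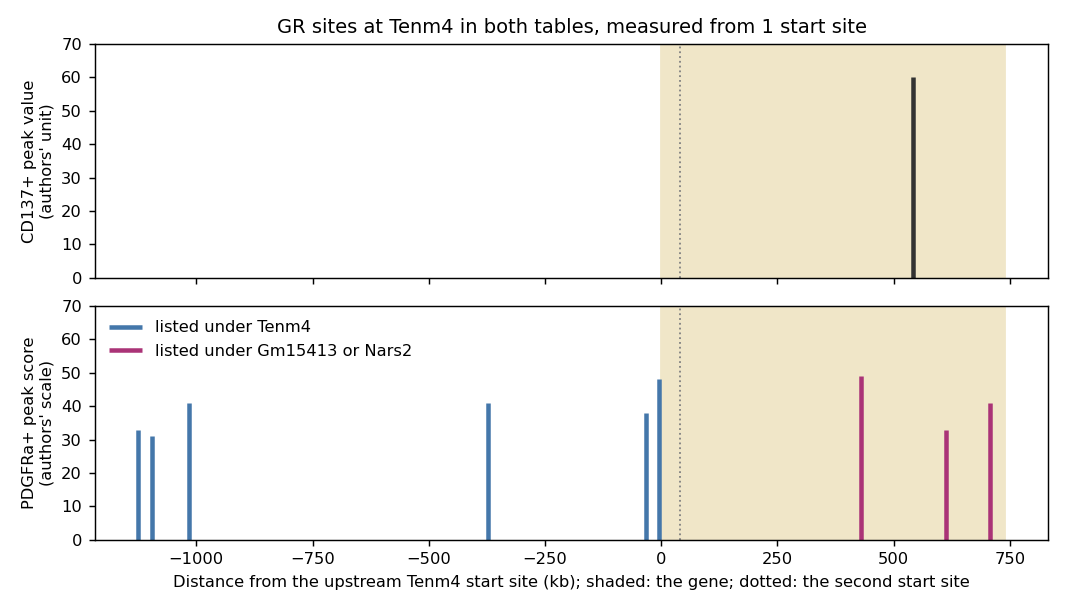
GR sites at Tenm4 against the distance from its upstream start site in kb, with the CD137+ peak value in the upper panel and PDGFRa+ peak scores in the lower panel, each in its authors' own scale. The CD137+ interval at 542 kb stands between PDGFRa+ peaks at 429 and 612 kb that are listed under Gm15413, and the 6 peaks listed under Tenm4 are all upstream.

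By the fixed rule, 5 other genes resembled Tenm4 in having a CD137+ interval, at least 1 peak of the PDGFRa+ list under their name, and no such peak at the same place, with a tolerance of 500 bp. Tenm4 and these 5 were 6 of the 10 genes named in both tables, and at the other 4 a PDGFRa+ peak shared the place of the interval. The likeness was ordered by the number of PDGFRa+ peaks, which come from 1 immunoprecipitate. Foxp1, a forkhead transcription factor gene, had 6 peaks, as many as Tenm4, with a highest score of 67, and a CD137+ value of 42. A230028O05Rik had 2 peaks and a CD137+ value of 56. Hif3a, Pibf1 and Zbtb16 had 1 peak each, and for Hif3a the CD137+ table itself gives a PDGFRa+ interval beside the CD137+ one. Of these 6 genes, Tenm4 alone held intron peaks listed under a neighbour. Foxp1 had 3 peaks within the gene, all under its own name.

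Unlike Tenm4, each of the other teneurins had 1 intron peak listed under its own name. The remaining listed peaks of Tenm2 and Tenm3 were upstream and intergenic, as at Tenm4. Tenm1, on the X chromosome, had a single peak with a score of 58 in intron 2 of 32, 154 kb from its start site. Tenm2 had 5 peaks, of which the highest, with a score of 58, was in intron 1 of 28 at 34.0 kb (chromosome 11, 36723690 to 36723835 as deposited). Its other 4 peaks were upstream at 17.6, 38.0, 212 and 283 kb, with scores of 41, 33, 33 and 41. The highest score was thus inside the gene at Tenm2, as at Tenm4, where it was 49. At Tenm2 that peak was listed under the gene's own name, and at Tenm4 under Gm15413.

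Tenm3 had 5 peaks, with scores from 26 to 41 and a median of 38. The peak in intron 1 of 28, 13.8 kb from the start site, scored 26, and a peak in a MIRb repeat 14.0 kb upstream scored 41. The others stood upstream at 85.5, 137 and 385 kb with scores of 38, 41 and 37, the last in a simple repeat. No Tenm3 peak passed 41, whereas Tenm1 and Tenm2 each had one at 58. As at Tenm4, introns of Tenm2 held peaks named for a neighbour: those in introns 3 and 17 of 28, with scores of 26 and 41, were listed under Wwc1, the gene of the scaffold protein KIBRA of the Hippo pathway.

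The latrophilin genes held the highest scores of the set. Adgrl2 had 6 peaks, led by one with a score of 67 in intron 2 of 23, 74.1 kb from the start site (chromosome 3, 148543402 to 148543558 as deposited). A peak with a score of 30 lay 16.2 kb upstream and one with a score of 41 lay 135 kb upstream. The remaining 3 lay past the other end of the gene, at 396, 594 and 757 kb from the start site, with scores of 41, 49 and 41. Adgrl2 was thus the single gene of the 10 with more than 1 intergenic peak downstream.

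Adgrl3 had 12 peaks, more than any other of the 10 genes. At least as many peaks named 14 protein-coding genes (0.064%), Adgrl3 among them, and nothing is read from this rank. Of the 12 peaks 8 were intergenic, and 5 peaks, under any name, lay within 500 kb of its start site. Its 4 listed intron peaks had scores of 41 and 31 in intron 2 of 27, 49 in intron 5 of 27 and 33 in intron 7 of 26. A further pair, both with a score of 41, in intron 20 of 27 and in intron 25 of 25 of another transcript, was listed under 1700031L13Rik. Its 6 intron peaks were spread along the gene, from 89.7 kb to 769 kb after a start site.

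The other 8 Adgrl3 peaks lay in the intergenic region before the gene, from 386 to 1717 kb upstream. The highest score of the whole set, 82, belonged to one of them, 1207 kb from the start site in MURVY-int, an ERV1 endogenous retrovirus sequence (chromosome 5, 80242467 to 80242728 as deposited). Of the 8, 5 were annotated to repeats: MURVY-int, the young LINE elements L1Md_A and L1Md_F2, the LTR element MLT1A1 and a CA repeat. Repeats held 38.1% of the whole list (95% Wilson interval 37.1 to 39.0) and 10 of the 49 peaks, or 20.4% (11.5 to 33.6). Adgrl3 held 5 of these 10, and how reads in repeated sequence were placed was not tested. Adgrl1, the most compact latrophilin gene at 41.9 kb, had a single intergenic peak with a score of 33, 51.6 kb upstream.

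Of the 13 peaks named for the FLRT genes, 7 were annotated to introns of another gene, 6 of them at Flrt3 and 1 at Flrt1. All 6 upstream peaks named for Flrt3 were in introns of Macrod2, which encodes an ADP-ribose hydrolase and spans Flrt3. Of these, 4 were in intron 5 of 18 of Macrod2, 392, 404, 465 and 490 kb from the Flrt3 start site, with scores of 33, 41, 33 and 41. Peaks in introns 4 and 3, at 343 and 90.6 kb, scored 49 each. The 5 farthest formed a run of 148 kb, so what the list calls Flrt3 is for these sites the inside of Macrod2.

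The remaining Flrt3 peak was within the gene, with a score of 57 in the 3' UTR of exon 3 of 3, 12.9 kb from the start site (chromosome 2, 140484251 to 140484443 as deposited). It was the only one of the 49 peaks annotated to an exon. The list annotated it to Flrt3, although Macrod2 spans that gene, so it is not counted among the peaks annotated to Macrod2. Flrt1 had 1 peak with a score of 41, 3396 bp from its start site, in intron 3 of 10 of Macrod1, the paralogue of Macrod2. Macrod1 and Macrod2, which span Flrt1 and Flrt3, thus each held peaks named for the FLRT gene within them. Flrt2 had 5 peaks: intergenic ones with scores of 58, 36 and 26 at 852, 758 and 257 kb upstream, one with a score of 33 at 126 kb downstream, and one in its single intron at 45.9 kb. That intron peak had a score of 20, the lowest of the list.

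**Figure D2:**
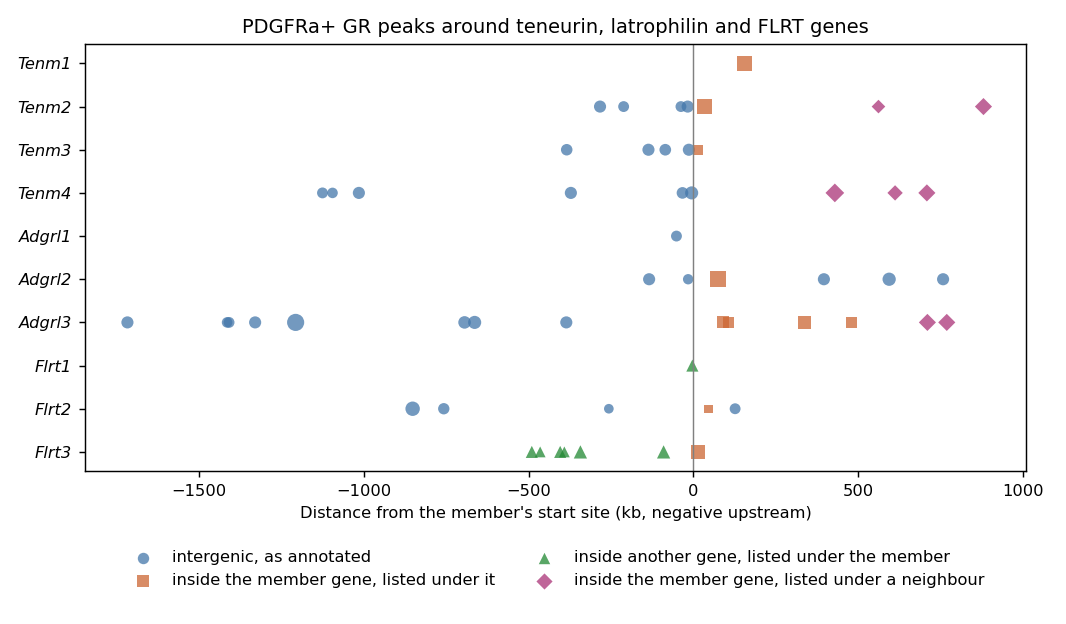
PDGFRa+ peaks by distance in kb from the start site of each gene, negative upstream, with marker area proportional to the peak score and colour for place and listed gene. No peak is within 3 kb of a start site, the Adgrl3 peaks run from 1717 kb upstream into the gene, and Tenm2, Tenm4 and Adgrl3 have 7 peaks inside the gene that the list names for a neighbour.

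All 10 genes were named by at least 1 PDGFRa+ peak, against 22.5% of all protein-coding genes and 53.5% of those of at least 100 kb, a length that 6 of the 10 reach. Since sites at these genes were known when they were chosen, nothing is read from that count or from the counts of genes that follow. Of the 10, 7 were named by 5 or more peaks, against 0.923% of protein-coding genes. Of the 6 that are at least 100 kb long, 5 were, against 4.65% of protein-coding genes of that length. A score of 50 or more was reached at 6 of the 10, namely Tenm1, Tenm2, Adgrl2, Adgrl3, Flrt2 and Flrt3, against 2.6% of protein-coding genes. That share of genes includes those named by no peak. By peaks, 6 of the 49 had such a score, or 12.2% (Wilson interval 5.73 to 24.2), against 8.88% of the whole list. The share by peaks was thus close to that of the list, and the difference was not tested. Scores of the 49 peaks had a median of 41 where the full list had 33, and the median was 41 in the teneurins, the latrophilins and the FLRT genes alike. The score takes few values: 41 was held by 16 of the 49 peaks and 33 by 9.

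**Figure D3:**
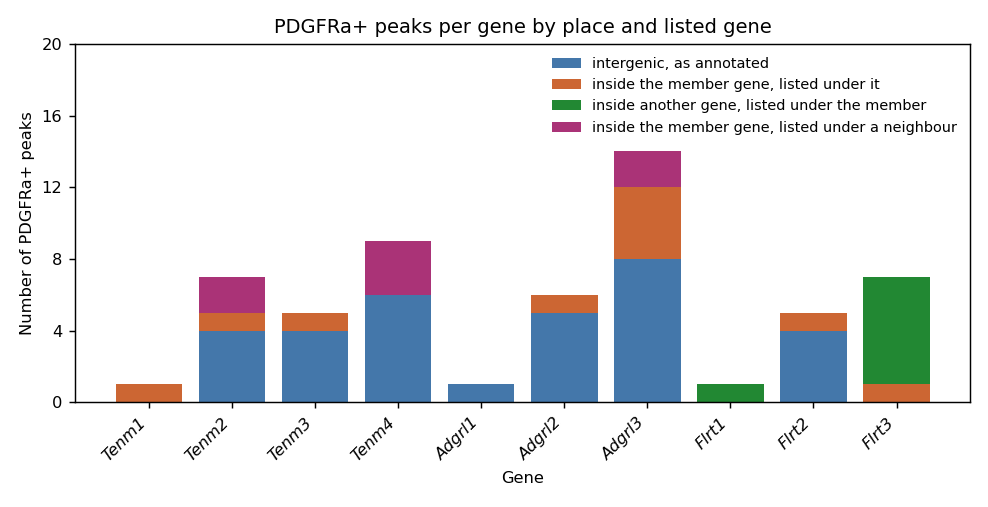
Number of PDGFRa+ peaks per gene, stacked by place and by the gene the list names. Adgrl3 has 12 listed peaks and 2 more within the gene under a neighbour, Tenm4 has 6 and 3, and at Flrt3 6 of 7 are annotated to another gene.

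The sites were distal. None of the 49 peaks was annotated to a promoter, and none lay within 3 kb of a start site, as 8.83% of the whole list did. The peaks lay beyond 100 kb in 33 of 49 cases, or 67.3% (95% Wilson interval 53.4 to 78.8), against 33.6% in the whole list. Without Adgrl3 the share was 59.5% (43.5 to 73.7). In the partner genes reported below it was alike, at 12 of 19 peaks, or 63.2% (41.0 to 80.9), so it was not particular to the set. No share is given for all long genes. These intervals cover counting error only, peaks of a gene share its surroundings, and no difference was tested. Upstream of the start site lay 35 of the 49, or 71.4%, against 44.0% in the whole list. With the 7 peaks inside a gene of the set that were listed under a neighbour, that share was 62.5% of 56. By the longer gene records described below, 9 of the 35 upstream peaks lay inside the gene, provided that distances are alike in the builds. The upstream share thus depends on the gene models, and by the longer records it is lower than either value.

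The nearest-start rule of the list moved sites between genes. Of 17 peaks in introns or exons of the 10 genes, 7 were listed under another gene, or 41.2%. Over the whole list 28.1% of the peaks inside a gene were, and with only 17 peaks the difference was not tested. In the opposite direction 7 of the 49 peaks were annotated to introns of Macrod1 or Macrod2. The listed gene is thus the gene with the nearest start, and which gene, if any, responds to a site was not measured.

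The annotation of intergenic peaks also depended on the gene models. RefSeq's record of Tenm2 in GRCm38, which includes predicted transcripts, reaches 293 kb upstream of the start site used here, and that of Tenm3 848 kb. By distance, all 4 intergenic Tenm2 peaks and all 4 intergenic Tenm3 peaks fell within these records, as did the Adgrl2 peak at 16.2 kb, whose gene record reaches 34.5 kb upstream. Thus 9 of the 32 intergenic peaks lay inside the gene by the longer models, provided that distances are alike in the builds, which was not tested for these genes.

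The density of peaks along the long genes depended on those models. By the longer records, the 6 genes of at least 100 kb held 24 peaks in 5.15 Mb of gene, or 4.66 per Mb, against 4.04 per Mb over the span of the whole list. Of these 24, 9 were the intergenic peaks above. Counting only peaks annotated to an intron left 15 in the same length, or 2.91 per Mb. That length includes the upstream reach of the longer records, 848 kb at Tenm3, 293 kb at Tenm2, 154 kb at Tenm1 and 34.5 kb at Adgrl2. The value of 2.91 is thus lower than the shorter models would give, whose lengths were not used. With the length kept, the choice of count moved Tenm3 from 3.85 to 0.771 per Mb, against 3.92 on chromosome 8. It moved Tenm2 from 5.69 to 2.44, against 4.60 on chromosome 11. Adgrl2 went from 11.5 per Mb, with 2 peaks, to 5.76, with 1, against 4.09 on chromosome 3. The other long genes had no intergenic peak within their longer records, so both counts gave the same value over that length. Tenm4 had 4.05 per Mb against 3.58 on chromosome 7, Adgrl3 7.42 against 4.12 on chromosome 5, and Tenm1 1.11 against 1.44 on the X chromosome. Over the length of the longer record, whether the intergenic peaks are counted thus decided on which side of its chromosome's density Tenm2 stood.

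Within 500 kb on either side of the start sites, counting every peak whatever gene it was listed under, there were 1 to 9 peaks, with a median of 5. The 2589 bins of 1 Mb into which the list was divided held a median of 4, with quartiles of 2 and 5. Flrt3 had 9, a number reached by 3.55% of the bins, and Tenm1 had 1, on the X chromosome, which had 1.44 per Mb. The windows are centred on genes chosen with their sites known and the bins are not, so nothing is read from that share. Tenm2, Adgrl1 and Adgrl2 had 6, Tenm3, Adgrl3 and Flrt2 had 5, Tenm4 had 4 and Flrt1 had 3. Adgrl1, which was named by 1 peak, thus had as many peaks around it as Adgrl2, which was named by 6.

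**Figure D4:**
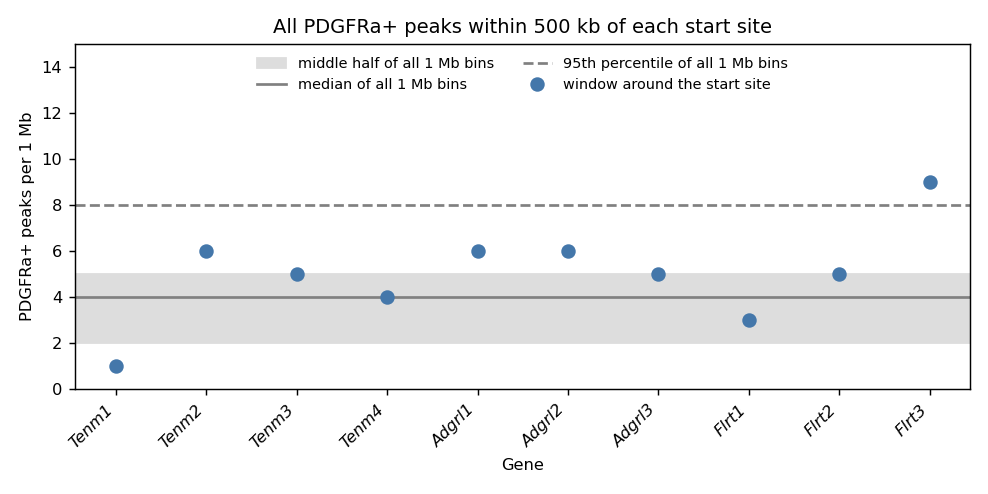
All PDGFRa+ peaks within 500 kb on either side of each gene's start site, as peaks per 1 Mb, beside the median, the quartiles and the 95th percentile (8 peaks) of all 1 Mb bins of the list. Flrt3, with 9 peaks, is above the 95th percentile, and Tenm1, with 1, is below the lower quartile.

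Other genes, called partner genes here, were taken from a list, and whether each belongs to the cell-surface complexes was not examined. Of that list 14 are reported. They include the netrin receptors Unc5a to Unc5d, which bind FLRT proteins, the neurexins Nrxn2 and Nrxn3, and the contactin Cntn6. The others are Fgfr1, Robo1, the latrophilin-like receptor gene Adgrl4, the scaffold genes Shank1 to Shank3, and Mbd1. Of the 14, 9 were named by a PDGFRa+ peak, against 22.5% of protein-coding genes, and none was in the CD137+ table, against 0.114%. Of the 8 that are at least 100 kb long, 7 had a peak, against 53.5% of protein-coding genes of that length. Since these 14 were kept from a longer list chosen with earlier results known, nothing is read from these counts. The 19 peaks had a median score of 41, and none was within 3 kb of a start site.

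Unc5d had the highest score of these partner genes, 58, at a peak in an intron 209 kb from a start site. Nrxn3, with 6 peaks all inside the gene, and Robo1, with 3 peaks, reached 49, both in introns. Unc5b and Unc5c were each named by 1 intron peak with a score of 41, and Unc5c held another peak that was listed under a neighbour. Adgrl4, Cntn6, Fgfr1 and Shank2 had 1 or 2 peaks with highest scores from 25 to 41, and Unc5a, Nrxn2, Shank1, Shank3 and Mbd1 were named by none.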

How the data were processed

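GR ChIP-seq peaks of 2 immunoprecipitates were used, as deposited. Bowtie2, SAMtools, MACS2, bedtools 2.17.0, FastQC and the mm10 build are named, with no role or threshold, per the submitters' processing notes. Read depth, and how inputs entered peak calling, were not given in the sources used here. Inputs were not analysed here. The labels' extraction protocol speaks of embryonic cells, unlike the adipose source in the same labels, so lysis steps are taken as unknown. Each deposited PDGFRa+ peak has a score of unstated scale, always whole and at least 20. The deposited CD137+ peak values are a signal in an unstated unit. The deposited distances are in bp from the nearest start site.

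Entrez identifiers and symbols selected the same peaks. Start sites of the PDGFRa+ list, from peak centre and distance, lay 0.174 to 7.15 Mb from those of GRCm38 at 9 of the 10 genes, so coordinates were printed as deposited and none was converted. Intron peaks were assigned to genes by the RefSeq transcript named (4514 of 4546 matched). Names, lengths and promoters came from RefSeq tables of GRCm38.p6. For Flrt1, whose strand was not in them, both placements of the start gave the same count of flanking peaks. The end of 1 peak was unreadable, and 1 had no gene. The genes, the partner list and the alternatives were chosen with earlier results of these data known. Of the partner list, 14 genes were kept and the others are not reported here. All 10 genes were named, the partner genes with a peak, with values for those with the highest scores, and genes like Tenm4. Matching of places was tested on simulated data. With 1 library per group no p-value was computed. Python 3.11.15, pandas 2.3.3 and scipy 1.17.1 were used.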

Additional observations from a re-analysis of the deposited data

How the results depend on the processing

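With 1 library per cell type, no replicate could be left out. No paired analysis was possible because each group has 1 sample and no test was made. A score of 50 or more left 6 of 49 peaks at 6 of the 10 genes, with a median score of 58, 50% in introns, and 1 of 9 partner genes. Peaks wider than the least width of 146 bp left 11 peaks at 5 genes, 18.2% in introns against 32.7% in all, and 3 partner genes. The 5 genes were Tenm3, Adgrl2, Adgrl3, Flrt2 and Flrt3. All 6 peaks listed under Tenm4 had the least width, as did 38 of the 49 peaks and 71.9% of the whole list. Within 100 kb were 16 peaks and 5 partner genes, and within 3 kb were 0 peaks, 0 of the 10 genes and 0 partner genes, so no median or share could be given there. These limits leave fewer peaks by construction. Without peaks in satellite, rRNA, simple repeat or low complexity sequence 47 peaks remained, at all 10 genes. Chosen after seeing the data, adding peaks inside a gene of the set under a neighbour gave 56 peaks. Leaving out those annotated to introns of Macrod1 and Macrod2, also chosen after seeing the data, gave 42 peaks at 9 genes, with 21.4% in introns. Counting only annotated introns and exons, also chosen after seeing the data, gave 2.91 peaks per Mb in the 6 long genes in place of 4.66. Both values were divided by the length of the longer gene records, so the first is lower than the shorter models would give. The Tenm4 interval had no PDGFRa+ peak at its place with windows of 200 bp, 1 kb or 10 kb. Scores of unknown scale and unknown depth limit what a missing peak shows.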
